A study of Homo sapiens with 4 samples.

Results

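The 32 genes described here encode transporters that carry amino acids across the plasma membrane or the membrane of the lysosome. They were taken by name from a list of such transporters, and all 32 were found among the 58735 gene identifiers of the count table. The list was chosen with earlier results of these data known, so its direction is no independent evidence. RNA came from cells labelled A549, a line derived from a human lung adenocarcinoma, which were wild-type by label and grown in medium with fetal bovine serum. The cells were stained for ICAM1, a surface adhesion protein, and sorted into an ICAM1-high subset (2 libraries) and an ICAM1-low subset (2 libraries), with no other treatment on the labels. Whether the 2 libraries of each subset were cultured and sorted independently is not on the labels, so a p-value here measures library-to-library spread, possibly technical only.

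Library totals ran from 16272591 to 17638647 counts. The sorting marker ICAM1 was counted 2153 and 2028 times in ICAM1-high and only 72 and 75 times in ICAM1-low, in the direction of the labels. CDKN2A, CDKN2B and MTAP lie in a stretch of chromosome 9 that A549 is known to have lost. CDKN2A had 1009 and 1214 counts in ICAM1-high but 0 in both ICAM1-low libraries, CDKN2B had 174 and 182 against 0 and 0, and MTAP had 459 and 463 against 1 and 8. Both ICAM1-high libraries thus go against the cell line label at these genes, and every comparison below rests on those libraries. None of the results could be repeated without them. Among 10 fibroblast markers the filter left 6, of which 4 were higher in ICAM1-high, 3 of the 4 having passed the filter on low counts through ICAM1-high alone. Their summed level was 32.7 to 36.9 CPM (counts per 1e6 scaled counts) in ICAM1-high and 5.31 to 6.59 in ICAM1-low, with COL3A1 and COL1A2 at 0 counts in ICAM1-high. Of 10 endothelial markers 4 were tested and all 4 were higher, 2 of them having passed through ICAM1-high alone, and the summed level was 23.7 to 27.2 CPM against 3.85 to 5.05 CPM. Of 10 leukocyte markers 1 was tested and was higher (summed level 19.2 CPM against 10.04 to 10.2), and the defining marker PTPRC had 0 counts in all 4 libraries. Of 12 epithelial and A549 markers 8 were tested, 3 higher and 4 lower, summing to 12076 to 12391 CPM against 17193 to 17719. Among them the keratin gene KRT8 was higher by 1.25 on the log2 scale, while ALDH1A1 was at -1.06 and AKR1B10, both abundant in A549, at -0.79. Beside these marker counts, 30.4% of all 16250 genes tested were higher in ICAM1-high and 29.4% lower (adjusted p under 0.05). The part of other cells in the differences below was not tested. In sorted bulk samples, fewer cells of a kind and less RNA per cell cannot be told apart.

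Cells take up amino acids through several families of membrane proteins. Some use the sodium gradient to concentrate amino acids, some exchange one amino acid for another, and some let them flow down their gradient. Light chains of the SLC7 family reach the surface only when bound to a heavy chain of the SLC3 family, and the glutamine that concentrating transporters gather is spent by the exchangers on leucine and other essential amino acids. Genes of several of these transporters are known targets of the transcription factor ATF4, which amino acid shortage activates through the kinase GCN2, and the cystine transporter gene SLC7A11 is also a target of NRF2, which is constantly active in A549 because its inhibitor KEAP1 is mutated there.

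Among the listed transporter genes, chosen with earlier results of these data known, more were lower than higher in ICAM1-high. Further transporter genes, described below, went the other way, with 13 higher and 1 lower of 23 tested. Of the 32 genes, 27 had enough counts to test and 5 did not. Of the 27, 17 were called lower and 8 higher at a Benjamini-Hochberg adjusted p under 0.05 (edgeR quasi-likelihood test, adjusted over all genes), and 2 were not called. That is 63.0% lower and 29.6% higher among members, beside 29.4% lower and 30.4% higher among all 16250 genes tested, of which 59.7% were called in either direction. At a difference of at least 1.5-fold, 12 members (44.4%) were lower and 8 (29.6%) higher, beside 12.1% and 17.5% of all genes tested. The median log2 fold change (ICAM1-high minus ICAM1-low) was -0.50 over the 27, which is the value of SLC6A15, and 0.01 over all genes tested. With scaling by library size alone, which raises the median of all genes by 0.17, the counts were 14 lower and 10 higher, beside 19.2% lower and 41.4% higher of all genes.

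The summed level of the 32 genes was 4477 and 4544 CPM in ICAM1-high against 10459 and 10439 CPM in ICAM1-low, 2.32 times as much in ICAM1-low. A count of 3, the floor used here for a gene at 0, corresponded to 0.161 to 0.196 CPM in single libraries. By the mean of both subsets, 11 members were over 100 CPM, of which 10 were called lower and 1, SLC7A2, higher. Of all 2186 genes tested over that level, 54.6% were lower and 26.7% higher. Among the 10, SLC38A10 changed its sign with scaling by library size alone. Of the 8 called higher, 4 were under 10 CPM in ICAM1-high and 5 in ICAM1-low. The ICAM1-high and ICAM1-low values did not overlap for 26 of the 27 genes, SLC36A1 being the exception, and for 78.3% of all genes tested. SLC1A3 passed the filter on low counts through ICAM1-high alone, so it could hardly have come out equal; the other 26 tested members reached the count minimum in both subsets.

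**Figure D1:**
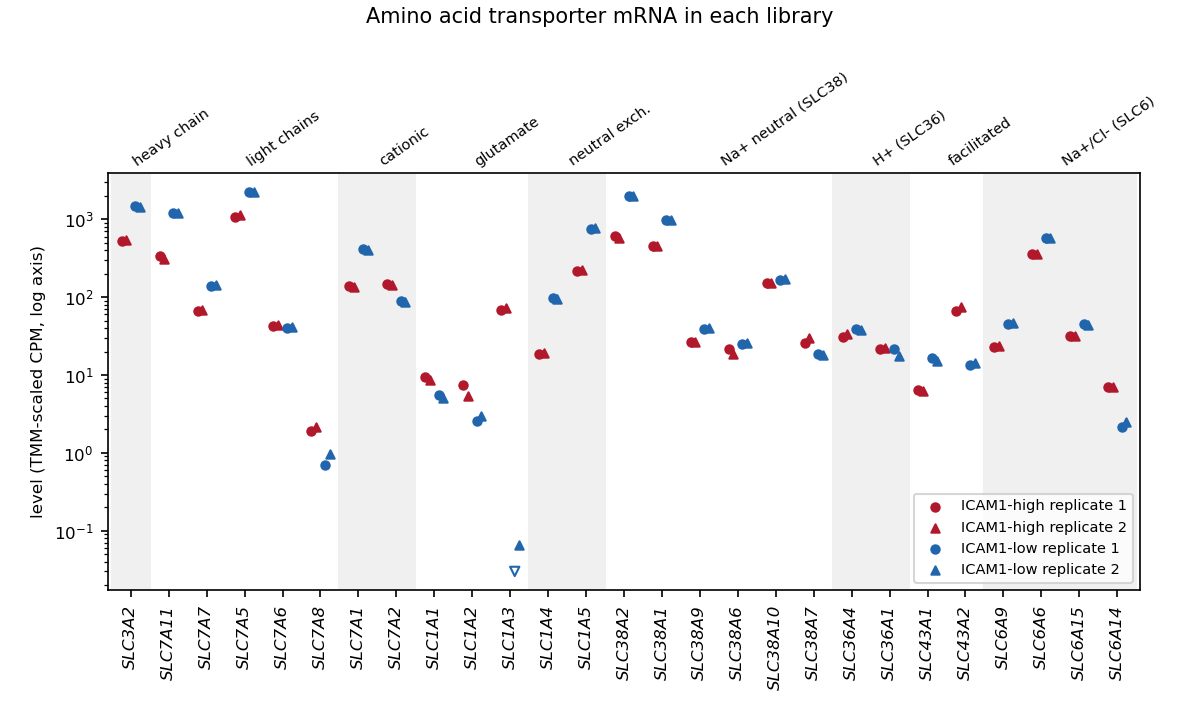
Level of the 27 tested transporter genes in each library, in TMM-scaled counts per 1e6 (CPM, log axis), grouped by the way the protein works; circles are replicate 1 and triangles replicate 2, red ICAM1-high and blue ICAM1-low, and the open triangle marks a library with 0 counts, drawn at the bottom of the axis. The blue points lie above the red ones for most genes over 100 CPM, and SLC1A3 is at 67.4 and 73.3 CPM in ICAM1-high against 0 and 0.0652 in ICAM1-low.

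Sequence upstream of the transporter genes was read from RefSeq promoter windows (GRCh38.p14), of which the 250 bases before each gene start were used. The table held 46 windows for 25 of the 32 genes, several genes having more than 1 start. SLC7A11 had no window, so its upstream sequence was not searched. A search on both strands used TGATGNAA, the core of the element that ATF4 binds with C/EBP partners, and TGACNNNGC, the core of the antioxidant response element bound by NRF2. Among all 35097 windows 3.15% held the first and 10.91% the second. Of the 26 windows before genes called lower, 1 held the first (3.85%) and 4 the second (15.4%). Of the 14 windows before genes called higher, 1 held each (7.14%), and of the 3 before genes not called, 1 held the second. Some windows of the same gene overlap, and some lie wholly within annotated exons, so windows are not separate upstream sequences. With so few matches these shares are a description only. Sequence outside the windows was not searched, so an element lying there would be missed. The palindrome TGACGTCA of the cyclic AMP response element was in 1.65% of all windows and in 0 of the members' windows. The NRF2 core lay before SLC3A2, SLC7A1, SLC1A5 and SLC7A7, called lower, before SLC1A3, called higher, and with 2 matches before SLC7A6, not called. The 4 stretches below, 5′ to 3′ on the gene's strand, show the 2 matches to the ATF4 core, which lie before a gene that was lower and one that was higher, and the NRF2 core matches of the heavy chain gene and of the arginine transporter gene. Capitals mark the match.
SLC3A2: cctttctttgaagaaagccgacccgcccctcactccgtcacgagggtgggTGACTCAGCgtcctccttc
SLC7A1: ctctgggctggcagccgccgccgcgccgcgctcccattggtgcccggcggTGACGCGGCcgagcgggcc
SLC1A5: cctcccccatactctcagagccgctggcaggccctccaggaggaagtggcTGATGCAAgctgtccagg
SLC1A3: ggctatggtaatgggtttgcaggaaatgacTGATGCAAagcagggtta
The SLC3A2 stretch is chr11:62881612-62881680 on the plus strand, inside the gene, with its match 37 to 29 bases before an internal start. Its match also contains TGACTCA, the AP-1 element. The SLC7A1 stretch is chr13:29595755-29595823 on the minus strand, just upstream of the gene, with the match 85 to 77 bases before the start. The SLC1A5 stretch is chr19:46784894-46784961 on the minus strand, before an internal start, and the SLC1A3 stretch is chr5:36596338-36596385 on the plus strand, upstream of the gene as GENCODE 29 draws it (36606355 to 36688334). A match describes these letters only and was not tested as a binding site.

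Heavy chains. SLC3A2 (ENSG00000168003, chromosome 11, 62856102 to 62888875, GRCh38) encodes 4F2hc, also known as CD98, the heavy chain that carries most SLC7 light chains to the plasma membrane. Its level was 523 and 545 CPM in ICAM1-high, as against 1467 and 1425 CPM in ICAM1-low. Both ICAM1-high libraries were far below both ICAM1-low libraries (log2 fold change -1.44, SE 0.04, adjusted p = 2.52e-43). The other heavy chain gene, SLC3A1, whose protein serves cystine uptake in the kidney with a different partner, had 1 and 3 counts against 6 and 2 and was not tested. Part of its exons overlaps PREPL on the opposite strand.

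Light chains. SLC7A5 (ENSG00000103257, chromosome 16, 87830023 to 87869488) encodes LAT1, which exchanges glutamine for leucine and other large neutral amino acids. It stood at 1076 and 1143 CPM against 2257 and 2254 CPM (log2 fold change -1.02, SE 0.04, adjusted p = 2.65e-35). Its level per kb of exon, the scale used here to compare genes, was the highest of the 32 genes in both subsets, with 234 CPM per kb in the high subset and 475 in the low. The length is that of all annotated exons of a gene together. A gene whose transcripts use only part of it reads too low, so ranks, ratios and shares between genes are approximate. A near copy, SLC7A5P1, had 41 and 59 counts against 16 and 27, few beside the 20051 to 35284 counts of SLC7A5 itself. SLC7A11 (ENSG00000151012, chromosome 4, 138164097 to 138242349) encodes xCT, which brings in cystine for glutathione synthesis in exchange for glutamate. It was at 334 and 308 CPM against 1195 and 1190.4 CPM, the deepest fall among the light chains (log2 fold change -1.89, SE 0.04, adjusted p = 3.31e-49). The transcript SLC7A11-AS1 on the opposite strand shares 9.0% of its exon length and was counted at 69 and 66 against 186 and 172.

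SLC7A7 and SLC7A6 encode y+LAT1 and y+LAT2, which export arginine and lysine in exchange for neutral amino acids and sodium. The SLC7A7 level was 67.3 and 67.8 CPM against 141 and 143 CPM (log2 fold change -1.07, SE 0.06, adjusted p = 4.15e-27). SLC7A6 was at 42.9 and 44.3 CPM against 39.8 and 41.6 CPM and was not called (log2 fold change 0.10, SE 0.08, adjusted p = 0.258). SLC7A7 passed the test and SLC7A6 did not; the difference between them was not tested. Of the SLC7A6 exon length 44.4% overlaps SLC7A6OS on the other strand, and the strand setting of the counting is not known. With scaling by library size alone SLC7A6 was called higher (0.27, adjusted p = 0.00119; 0.00119 to 0.666 over 12 alternatives). SLC7A8, which encodes LAT2, was scarce, with 36 and 39 counts against 11 and 15, and was called higher (log2 fold change 1.26, SE 0.38, adjusted p = 0.00304). That call was lost with DESeq2 (adjusted p = 0.0994) and without ICAM1-low replicate 1 (0.0546), over a range of 7.29e-04 to 0.0994 in 12 alternatives. On chromosome 14 SLC7A7 and SLC7A8 are 295.5 kb apart.

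Because each light chain needs a heavy chain, their levels per kb were set against that of SLC3A2 in each library. SLC7A5 mRNA was 2.25 and 2.29 times that of SLC3A2 in ICAM1-high and 1.68 and 1.73 times in ICAM1-low. SLC7A11 was at 0.343 and 0.304 of SLC3A2 in ICAM1-high and at 0.437 and 0.449 in ICAM1-low. SLC7A11 therefore fell by more than the heavy chain gene and SLC7A5 by less, with no overlap between subsets in either ratio. Single-gene levels did not overlap for 78.3% of all genes tested. The 5 light chain genes together were at 2.78 and 2.78 times SLC3A2 in ICAM1-high and 2.23 and 2.30 times in ICAM1-low. SLC7A5 made up 81.6% ± 1.12 (SD, n = 2) of light chain mRNA per kb in ICAM1-high and 75.2% ± 0.0382 (n = 2) in ICAM1-low, and SLC7A11 made up 11.6% ± 1.001 and 19.6% ± 0.0443. With 2 libraries against 2, an exact permutation test of such a ratio cannot give a two-sided p below 0.333, so none was run.

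**Figure D2:**
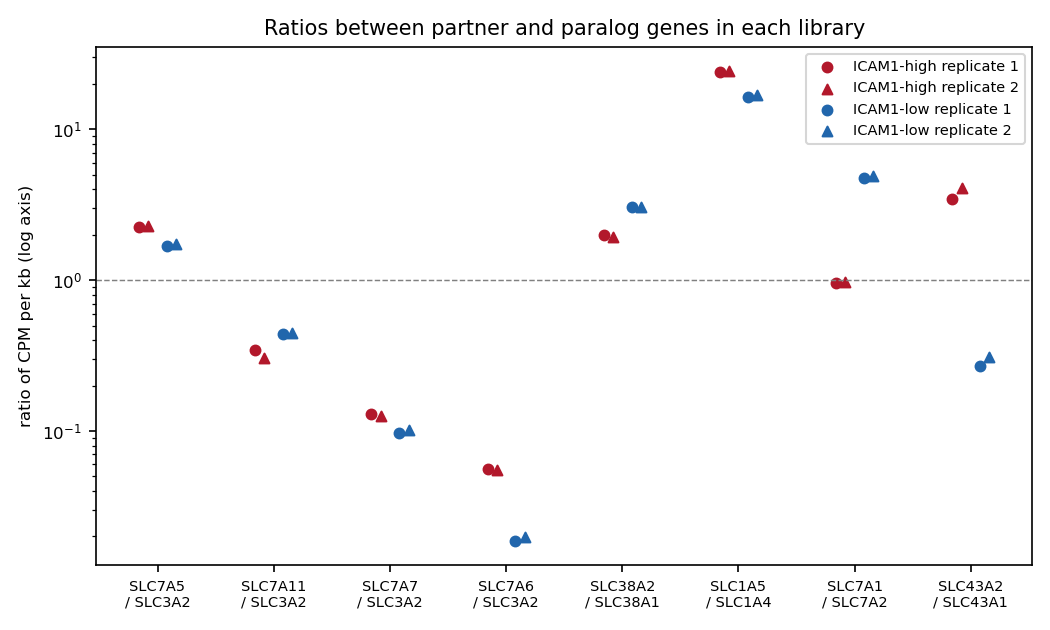
Ratios of levels per kb of exon between genes whose products are partners or close relatives, in each of the 4 libraries (log axis; red ICAM1-high, blue ICAM1-low, circles replicate 1, triangles replicate 2; the dashed line marks equal levels). All 8 ratios separate the subsets, as do the single-gene levels of 78.3% of all genes tested. The widest are SLC43A2 to SLC43A1 (3.44 and 4.07 against 0.270 and 0.310) and SLC7A1 to SLC7A2 (0.960 and 0.974 against 4.74 and 4.90).

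Cationic transporters. SLC7A1 and SLC7A2 encode CAT1 and CAT2, which take up arginine, lysine and ornithine without a heavy chain, and they moved in opposite directions. SLC7A1 (ENSG00000139514, chromosome 13) was at 137 and 136 CPM against 411 and 408 CPM (log2 fold change -1.58, SE 0.04, adjusted p = 1.52e-42). SLC7A2 (ENSG00000003989) was at 147 and 144 CPM against 89.2 and 85.7 CPM (log2 fold change 0.73, SE 0.05, adjusted p = 1.50e-19). Per kb, SLC7A1 mRNA was 4.82 ± 0.114 (SD, n = 2) times that of SLC7A2 in ICAM1-low and 0.967 ± 0.0101 (n = 2) times in ICAM1-high.

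Glutamate transporters. SLC1A1, SLC1A2 and SLC1A3 encode EAAT3, EAAT2 and EAAT1, which concentrate glutamate and aspartate with sodium and are best known for clearing glutamate at synapses. All 3 were called higher, but SLC1A3 passed the filter on low counts through ICAM1-high alone, so its call could hardly have differed. SLC1A3 (ENSG00000079215, chromosome 5) had 1256 and 1347 counts in ICAM1-high but 0 and 1 in ICAM1-low. With 2603 counts against 1, the ratio of scaled counts was 2179 (95% exact binomial interval 391 to 86093, counting error only). The gene was 12th of the 32 by level per kb in ICAM1-high (11.2 CPM per kb), while in ICAM1-low it was under the floor of 3 counts. The same libraries held CDKN2A and CDKN2B counts that the ICAM1-low libraries lacked.

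The other glutamate transporter genes were scarce in both subsets. SLC1A1 was at 9.39 and 8.71 CPM against 5.50 and 5.02 CPM (log2 fold change 0.78, SE 0.17, adjusted p = 6.15e-05). SLC1A2 was at 7.46 and 5.34 CPM against 2.56 and 2.999 CPM (log2 fold change 1.20, SE 0.22, adjusted p = 2.66e-06), spread over 22835 bases of exon, so that its level per kb was only 0.280 and 0.122 CPM. SLC1A3 made up 80.1% and 82.9% of the summed level per kb of these 3 genes in ICAM1-high, and 0 and 0.745% in ICAM1-low.

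Neutral exchangers of the same family. SLC1A4 and SLC1A5 encode ASCT1 and ASCT2, which exchange alanine, serine, cysteine and, for ASCT2, glutamine. SLC1A4 (ENSG00000115902, chromosome 2) was at 18.6 and 19.2 CPM against 96.4 and 95.3 CPM, the largest fall of the 27 genes (log2 fold change -2.34, SE 0.07, adjusted p = 1.66e-39). SLC1A5 (ENSG00000105281, chromosome 19) was at 214 and 226 CPM against 755 and 772 CPM (log2 fold change -1.79, SE 0.04, adjusted p = 1.59e-47). Both exchangers were thus lower in ICAM1-high, while the 3 glutamate carriers of the SLC1 family were higher. Of these carriers, SLC1A3 passed the filter on low counts through ICAM1-high alone. SLC1A5 remained the more abundant, at 24.3 ± 0.378 (SD, n = 2) times SLC1A4 per kb in ICAM1-high and 16.6 ± 0.394 (n = 2) times in ICAM1-low.

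Sodium-coupled neutral transporters. SLC38A1 and SLC38A2 encode SNAT1 and SNAT2, which concentrate glutamine, alanine and other small neutral amino acids; SNAT2 is known to be induced when amino acids run short. SLC38A2 (ENSG00000134294, chromosome 12) was at 603 and 580.3 CPM against 2001 and 2012 CPM (log2 fold change -1.76, SE 0.04, adjusted p = 9.38e-49). SLC38A1 (ENSG00000111371) was at 457 and 458 CPM against 986.5 and 994 CPM (log2 fold change -1.11, SE 0.04, adjusted p = 4.63e-37). The ratio of SLC38A2 to SLC38A1 per kb was 2.003 and 1.92 in ICAM1-high and 3.08 and 3.07 in ICAM1-low. These genes are neighbours, 88.2 kb apart on chromosome 12, and SLC38A4, 391.9 kb beyond SLC38A2, had at most 2 counts in any library. SLC38A3 and SLC38A5, transporters of glutamine, asparagine and histidine, had at most 4 and 8 counts and were not tested.

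Among the less abundant relatives, 3 were lower and 1 was higher. SLC38A9, a lysosomal transporter that reports arginine to the growth kinase mTORC1, was at 26.7 and 26.7 CPM against 39.1 and 40.3 CPM (log2 fold change -0.57, SE 0.08, adjusted p = 1.28e-08). SLC38A7, which releases glutamine and asparagine from the lysosome, was at 25.9 and 29.8 CPM against 18.6 and 18.2 CPM (log2 fold change 0.60, SE 0.10, adjusted p = 3.15e-07). The 2 lysosomal genes of this family thus lay on opposite sides. SLC38A6 was at 21.3 and 18.4 CPM against 25.2 and 25.9 CPM (log2 fold change -0.36, SE 0.10, adjusted p = 0.00114), a call lost with scaling by library size alone (-0.19, adjusted p = 0.0913; 1.07e-04 to 0.0913 over 12 alternatives). SLC38A10 showed the smallest difference called, 153 and 154 CPM against 167 and 169.8 CPM (log2 fold change -0.14, SE 0.05, adjusted p = 0.0108). Its sign turned with scaling by library size alone (0.035), and the call was also lost without either ICAM1-low library (adjusted p = 0.0665 without replicate 1 and 0.115 without replicate 2; 0.00417 to 0.550 over 12 alternatives).

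Transporters of the SLC36 family. SLC36A1 encodes PAT1, which carries small neutral amino acids with protons, and SLC36A4 encodes PAT4, which carries tryptophan and proline. Both act on lysosomes as well as at the surface. SLC36A1 was at 21.5 and 22.1 CPM against 21.9 and 17.3 CPM, so the subsets overlapped and it was not called (log2 fold change 0.15, SE 0.10, adjusted p = 0.215). ICAM1-low replicate 2 decided its size. Without that library the log2 fold change was -0.016 (adjusted p = 0.932), and without ICAM1-low replicate 1 it was 0.32 and called (adjusted p = 0.0405; 0.00564 to 0.932 over 12 alternatives). With scaling by library size alone it was also called higher (adjusted p = 0.00564). SLC36A4 was at 30.9 and 33.7 CPM against 38.8 and 37.8 CPM (log2 fold change -0.25, SE 0.08, adjusted p = 0.00711). That call was lost with scaling by library size alone (adjusted p = 0.454), with DESeq2 (0.0982) and without ICAM1-high replicate 1 (0.0607) or ICAM1-low replicate 1 (0.0629), over a range of 0.00195 to 0.454.

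Facilitated diffusion. SLC43A1 and SLC43A2 encode LAT3 and LAT4, which let leucine, isoleucine, methionine and phenylalanine pass down their gradient, and they changed places between the subsets. SLC43A2 (ENSG00000167703, chromosome 17) was at 66.0 and 75.2 CPM against 13.3 and 14.1 CPM (log2 fold change 2.37, SE 0.09, adjusted p = 1.70e-35). Among the 26 genes that reached the count minimum in both subsets this was the largest rise. SLC43A1 (ENSG00000149150, chromosome 11) was at 6.39 and 6.15 CPM against 16.4 and 15.1 CPM (log2 fold change -1.33, SE 0.14, adjusted p = 4.66e-13). Per kb, SLC43A2 mRNA was 3.44 and 4.07 times that of SLC43A1 in ICAM1-high and 0.270 and 0.310 times in ICAM1-low. SLC16A10, the aromatic amino acid carrier TAT1, had 14 and 6 counts against 2 and 2 and was not tested.

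Sodium- and chloride-coupled transporters. SLC6A6 (ENSG00000131389, chromosome 3) encodes the taurine transporter and was the most abundant of this group, at 356 and 354 CPM against 576 and 578 CPM (log2 fold change -0.70, SE 0.04, adjusted p = 3.08e-25). SLC6A9, the glycine transporter GlyT1, was at 23.2 and 23.9 CPM against 45.8 and 46.4 CPM (log2 fold change -0.97, SE 0.08, adjusted p = 1.03e-16). SLC6A15, a carrier of branched-chain amino acids and proline, was at 31.4 and 32.1 CPM against 45.7 and 44.1 CPM (log2 fold change -0.50, SE 0.08, adjusted p = 8.86e-08). All 3 were lower in both ICAM1-high libraries than in either ICAM1-low library. Of all genes tested, 78.3% did not overlap between subsets, in either direction. SLC6A14, which takes up both neutral and cationic amino acids, was the exception, with 131 and 128 counts against 34 and 38, or 7.03 and 6.97 CPM against 2.17 and 2.48 CPM (log2 fold change 1.59, SE 0.22, adjusted p = 2.67e-09).

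**Figure D3:**
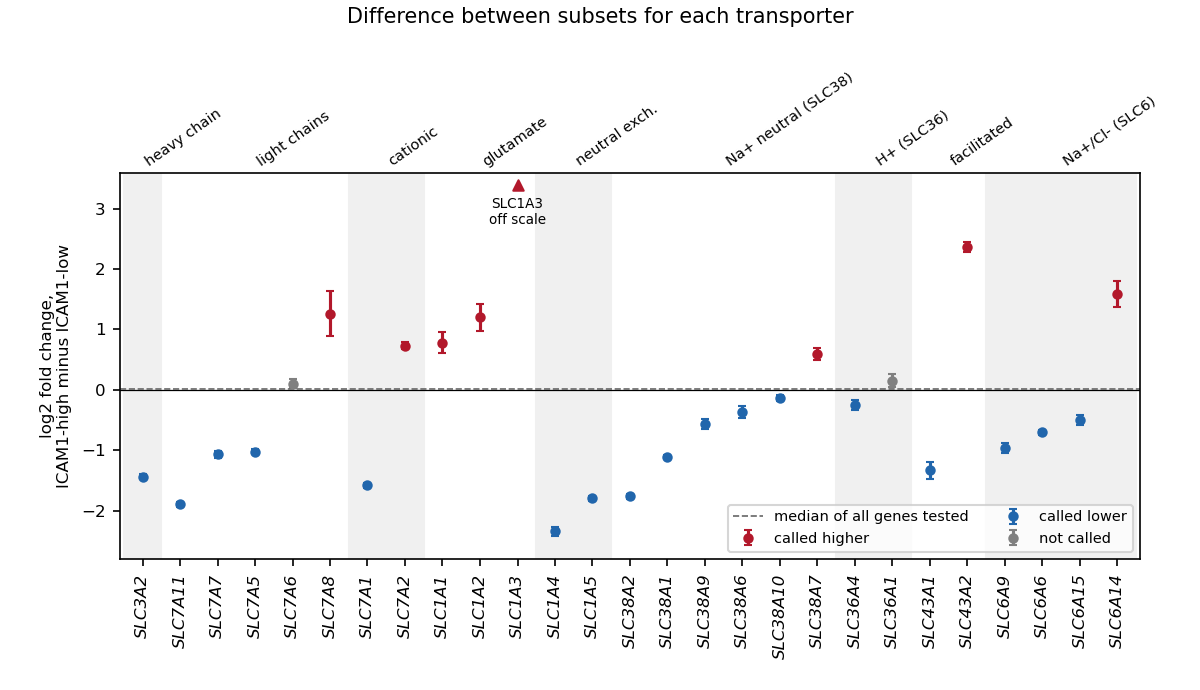
Log2 fold change (ICAM1-high minus ICAM1-low) of the 27 tested transporter genes. Bars are standard errors worked back from the edgeR test statistic. Blue points were called lower, red higher and grey not called, and the dashed line is the median of all genes tested (0.01). SLC1A3, with 2603 counts against 1, is drawn at the top edge and not to scale, the deepest falls are SLC1A4 (-2.34) and SLC7A11 (-1.89), and SLC38A10 (-0.14) turned to 0.035 with scaling by library size alone.

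Seen by level per kb, the order of the genes changed little at the top. In ICAM1-low the 6 most abundant were SLC7A5 (475 ± 0.429 CPM per kb, SD, n = 2), SLC38A2 (304 ± 1.13), SLC3A2 (279 ± 5.78), SLC1A5 (229 ± 3.54), SLC7A11 (124 ± 0.331) and SLC38A1 (98.9 ± 0.519). No 2 neighbours in that order overlapped between libraries. In ICAM1-high the order was SLC7A5 (234 ± 9.95), SLC3A2 (103 ± 3.01), SLC38A2 (89.6 ± 2.47), SLC1A5 (66.1 ± 2.39), SLC38A1 (45.7 ± 0.0648) and SLC6A6 (43.02 ± 0.227), with SLC7A11 next at 33.3 ± 1.90. SLC7A11 went from the fifth to the 7th place and SLC1A4 from the 11th to the 22nd, while SLC43A2 went from the 23rd to the 13th. The 6 genes that led in ICAM1-low held 86.1% of the summed level per kb there, and the 6 that led in ICAM1-high held 78.3% in that subset.

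**Figure D4:**
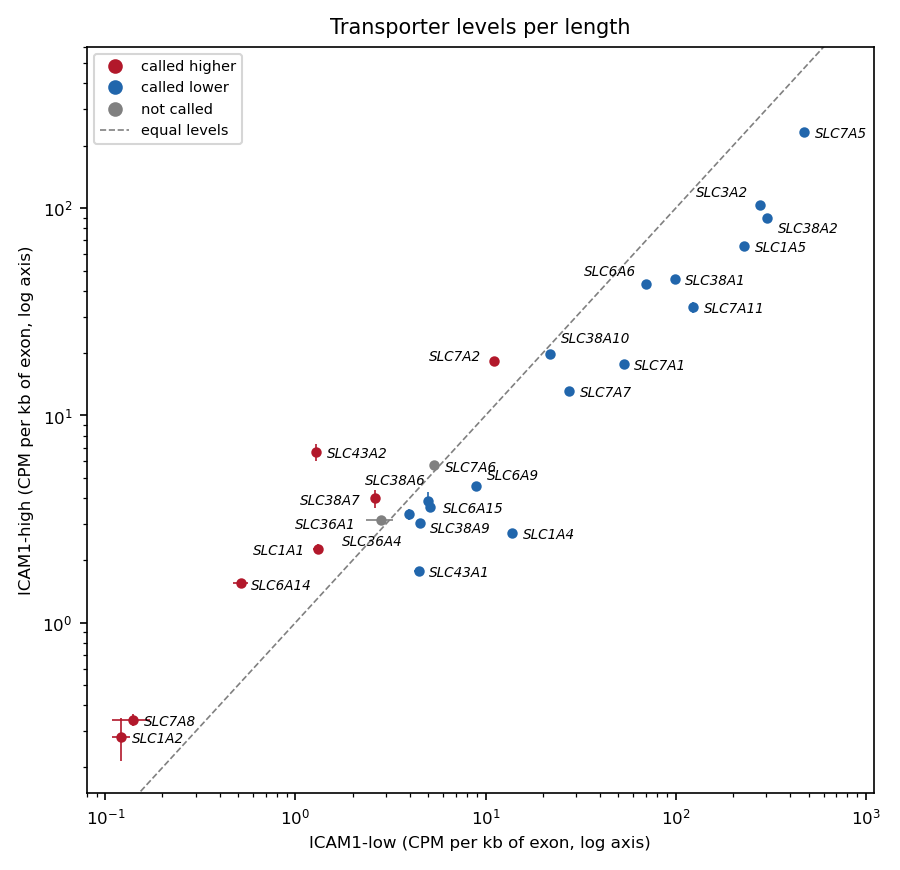
Mean level per kb of exon in ICAM1-low (horizontal, log axis) and ICAM1-high (vertical, log axis) for 26 tested transporter genes, with the SD of 2 libraries as bars; SLC1A3, at 11.2 against 0.0052 CPM per kb, is left out, and colours give the call (blue lower, red higher, grey not called). The dashed line marks equal levels, and SLC7A2 is the only red point over 10 CPM per kb in either subset among those drawn.

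Of 45 further amino acid transporter and carrier genes that the list of 32 does not hold, 44 could be matched and 23 were tested. Of these, 13 were higher, 1 was lower and 9 were not called, with a median log2 fold change of 0.40. That is 56.5% higher and 4.35% lower, beside 30.4% and 29.4% of all genes tested. Of the 13 called higher, 3 passed the filter on low counts through ICAM1-high alone, SLC43A3 and SLC6A12 among them, and these could hardly have come out otherwise. The 4 with the smallest adjusted p are given next. SLC6A8, the creatine transporter, was at 60.6 and 75.7 CPM against 11.2 and 9.39 CPM (log2 fold change 2.73). SLC43A3, a nucleobase transporter related to the LAT3 and LAT4 genes, had 285 counts against 1. MFSD12, a cysteine importer of lysosomes and melanosomes, was higher by 0.73 on the log2 scale, and SLC6A12, a betaine and GABA transporter, had 218 counts against 10. The 1 lower was SLC25A38, a mitochondrial glycine carrier (-0.46).

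Genes of the response to amino acid shortage were mostly lower. Of 30 genes of the GCN2 and ATF4 response 29 were tested, 24 were lower and 2 higher, with a median of -1.25. That is 82.8% lower and 6.90% higher, beside 29.4% and 30.4% of all genes tested. This list was drawn up with earlier results of these libraries known, so its direction is no independent evidence. The 4 with the smallest adjusted p were GDF15 (-2.88) and STC2 (-2.93), secreted stress proteins, TRIB3 (-2.13), a pseudokinase that curbs ATF4, and PSAT1 (-1.75) of serine synthesis. ATF4 mRNA itself, named after its value was seen, was at 320 ± 11.8 CPM against 467 ± 8.31 CPM (SD, n = 2 each; log2 fold change -0.55, SE 0.04, adjusted p = 2.76e-19), and EIF2AK4, the gene of GCN2, was higher by 0.58 (adjusted p = 2.28e-10). ATF4 protein is set largely by translation, so its mRNA gives no measure of its activity.

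Of 41 genes of amino acid sensing by mTORC1, all tested, 12 were higher and 16 lower (29.3% and 39.0%), beside the 30.4% and 29.4% of all genes, with a median of -0.075. SLC38A9, itself a listed transporter and called lower, is counted here again. The 4 with the smallest adjusted p were the transcription factor gene TFE3 (-0.96), SESN2 (-1.63), which encodes a leucine sensor and also stands in the shortage list, LARS1 (-0.65), the leucyl-tRNA synthetase gene, and FLCN (-0.73), the folliculin gene. Enzymes that use glutamine, glutamate and cystine were mostly lower. Of 29 such genes 27 were tested, 17 lower and 4 higher, with a median of -0.45. That is 63.0% and 14.8%, beside 29.4% and 30.4% of all genes tested. CBS, CTH, ASNS and PSAT1 stand in the shortage list as well. Both this list and the sensing list were chosen with earlier results of these data known. The enzyme genes with the smallest adjusted p were PSAT1, GFPT1 (-1.53), the first enzyme of hexosamine synthesis, GOT1 (-1.42), an aspartate aminotransferase, and CBS (-2.78) of cysteine synthesis.

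**Figure D5:**
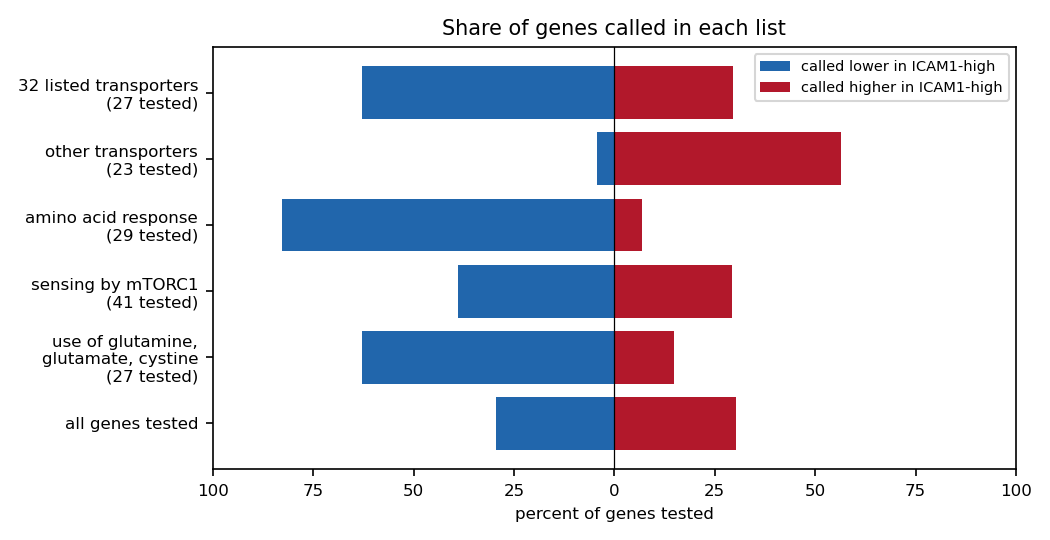
Percent of tested genes called lower (blue, to the left) and higher (red, to the right) in ICAM1-high for the 32 listed transporters, 4 further gene lists and all genes tested. Of the listed transporters 63.0% were lower and 29.6% higher, of the further transporters 4.35% and 56.5%, and of all genes 29.4% and 30.4%. Lists share some genes, SLC38A9 standing among both the listed transporters and the mTORC1 sensing genes.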

How the data were processed

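Bulk RNA-seq was carried out on 4 libraries, each matched to its column of the table by its description. Libraries were made from Trizol-extracted RNA with a SMARTer mRNA kit, per the labels' protocols. The values the authors deposited are unnormalized whole-number counts for each gene, and the submitters' processing notes name FastQC 0.10.1 and GRCh38. For the aligner, counting program and strand setting, the sources used here give nothing, so overlapping genes and near copies carry uncertain values. Members and lists were chosen with earlier results of these data known. All members are accounted for, and of each other list the called genes with the smallest adjusted p, up to 4, are named. Symbols came from a gene name table (58207 of 58735 identifiers), and positions and exon lengths (all annotated exons of a gene merged) from GENCODE 29.

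Genes were compared with edgeR 4.0.16 in R 4.3.3 (quasi-likelihood test, robust estimation, TMM scaling, and edgeR's own filter at its defaults, 10 counts and a total of 15), with Benjamini-Hochberg adjustment over all 16250 genes tested, and the script was tested on simulated data. The fitted common dispersion, 0.00133, amounts to a coefficient of variation of 3.64%. Each SE is the absolute log2 fold change divided by the square root of the quasi-likelihood F statistic. Alternatives were DESeq2 size factors, library size alone, other filters, DESeq2 1.42.0, limma-voom (limma 3.58.1), a block on replicate number, leaving out genes of ribosomal proteins and the mitochondrial genome, stricter calls, and leaving out 1 library at a time. A subset reduced to 1 library borrows its spread from the other.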

Additional observations from a re-analysis of the deposited data

How the results depend on the processing

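Of the 27 transporters tested, 21 kept their call and direction under all 12 refits, and 6 did not: SLC7A6, SLC7A8, SLC38A6, SLC38A10, SLC36A1 and SLC36A4. The members' median of -0.50 was -0.33 with library size alone, -0.45 with no filter on low counts (32 members), -0.37 with DESeq2 (29 members) and -0.49 to -0.42 with a library left out (27 or 28 members). With library size alone the median of all genes moved by 0.17, as much as that of the members. SLC38A10 turned to 0.035 with library size alone, and SLC36A1 ranged from -0.016 to 0.32 with a library left out. Members called lower numbered 14 to 17 over the refits and 12 at 1.5-fold or more, and members called higher 7 to 10. Of all genes, 3124 were lower and 6735 higher with library size alone, against 4771 and 4935, and 2840 were higher and 1963 lower at 1.5-fold or more. With the replicate block 8 members were higher and 17 lower, and 4976 and 4836 of all genes. The block is not backed by the labels, and deviations of same-numbered libraries correlated at 0.042 over genes tested. Depth limits SLC7A8 and the 5 untested genes, with at most 39 and 14 counts in a library.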
